A study of Rattus norvegicus with 28 samples.

Results

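Kidney mRNA was compared between SBN/y rats with 1 kidney left after uninephrectomy (surgical removal of the right one) and SBN/y rats that kept both kidneys after a sham operation. The arrays were chosen by their titles, 7 for each state, which made 14 of the 28 arrays of the series. The remaining 14 arrays, 7 per state, came from SBH/y rats and entered the fit so that all 4 groups shared an estimate of the spread. All animals were female, ate standard chow and were killed at 5 months of age, 4 months after the operation, long after the loss of the partner kidney. SBN/y and SBH/y are inbred Sabra strains, known as resistant and prone to salt-sensitive hypertension. The labels number the samples of each group from 1 to 7 and do not state that the arrays of a group were from different animals. The spread behind the p-values may therefore be technical. Each sample was RNA of whole kidney measured on an Affymetrix rat array, and in such bulk RNA fewer cells of a type and less RNA per cell cannot be told apart.

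A kidney that remains after the loss of the other one takes over its work by enlarging, and most of the enlargement comes from growth of the tubule cells rather than from new nephrons. The proximal tubule reclaims most of the filtered glucose, phosphate and amino acids through apical and basolateral transporters, and the distal tubule fine-tunes calcium, magnesium and sodium. CCN matricellular proteins, insulin receptor substrates and feedback inhibitors of cytokine signalling are known to respond to growth and mechanical signals, and heat shock and endoplasmic reticulum chaperones to the load of protein folding.

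Levels of tissue markers were set against each other between groups only, since levels of different probe sets cannot be compared. The mean log2 value of 34 proximal tubule markers lay between 10.64 and 10.79 on the uninephrectomy arrays and between 10.77 and 10.94 on the arrays with both kidneys, and Umod, the uromodulin gene of the thick ascending limb, averaged 13.26 ± 0.09 after uninephrectomy and 13.21 ± 0.04 with both kidneys (SD, n = 7 each). The mean level of 12 adrenal gland markers lay between 4.06 and 4.2 after uninephrectomy and between 4.01 and 4.21 with both kidneys. The mean level of 18 adipose markers was 6.34 to 7.38 after uninephrectomy and 6.64 to 7.52 with both kidneys. Array medians were 5.72 to 5.77. Between SBN/y arrays the correlation across probe sets was 0.993 to 0.9971, and 0 pairs of arrays held identical values. Signal over background was not measured, so a log2 change of a gene whose mean lies below 5.72 gives no exact fold of RNA.

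Of 31042 probe sets tested, 69 were higher and 75 lower after uninephrectomy in SBN/y at an adjusted p under 0.05 in limma, together 144 or 0.464% of all (0.222% higher and 0.242% lower). With 1 probe set per gene, 41 of 14217 genes were higher and 45 lower, or 0.605% (0.288% and 0.317%). At an unadjusted p under 0.05 there were 2717 probe sets. The called changes were small, from 0.16 to 1.97 log2 units in size with a median of 0.33, and 1 called probe set was higher and 6 were lower by 2-fold or more. The median change over all genes was -0.00. On 64 of the 144 called probe sets the 7 uninephrectomy arrays and the 7 arrays with both kidneys did not overlap, against 127 or 0.409% of all probe sets. The count was 87, 95, 91, 79 and 62 without uninephrectomy array 2, 3, 4, 5 and 7, and 69 and 72 without array 3 and 5 with both kidneys, and with the 14 SBN/y arrays alone it was 60, of which 52 were among the 144, and 19 of 45 named calls were kept. The 26 not called with the SBN/y arrays alone were those of Slc25a25, Foxq1, Ccn1, Rsph1, Scd, Thrsp, Spp2, Stc2, Dnah7, Gas2, Pou3f1, Ddit4, Hsph1, Manf, Hspa5, Phgdh, Slc34a3, Slc5a2, Slc7a7, Slc7a9, Cldn16, Gstp1, Acaca, Cbs, Ccl28 and Cyp4v3. Of 45 called genes named here, 17 kept their call in each of the 28 fits that left out 1 array, and the calls of the other 28 were lost in at least 1 of these fits.

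Genes of growth signalling included the rise with the smallest p. Of 31 genes of growth factor and insulin-like growth factor signalling measured, Ccn2, Irs2 and Ccn1 rose and 0 fell, where 0.288% of all genes rose. The median change of the list was 0.02, against -0.00 over all genes. Ccn2, the connective tissue growth factor, had log2 values of 9.68 to 10.08 after uninephrectomy with a median of 9.78, against 9.11 to 9.32 with both kidneys and a median of 9.24. All 7 uninephrectomy arrays lay above all 7 arrays with both kidneys, and the spread within each group was small. Ccn2 was higher by 0.59 ± 0.07 log2 units (the standard error of limma, as after every change below), or 1.51-fold, with an adjusted p of 5.49e-05, and by 0.55 to 0.62 with any 1 array left out. In SBH/y the change of Ccn2 was 0.61 (adjusted p 1.82e-06), and the interaction, the SBH/y change minus the SBN/y change, was 0.02 (adjusted p 0.978).

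Ccn1, another CCN family member and like Ccn2 a known target of the Yap and Tead transcription factors, ran from 6.61 to 7.64 after uninephrectomy with a median of 6.85. With both kidneys it ran from 6.05 to 6.56 with a median of 6.32. The groups did not overlap. The change was 0.62 ± 0.13 (adjusted p 0.0222), and without uninephrectomy array 3 it was 0.57 with an adjusted p of 0.0528. The promoters of both genes, read from RefSeq on the assembly GRCr8 as the 250 bases before the start, were searched on both strands for the Tead core GGAATG, a motif chosen with the results known. Ccn2 held 3 matches, at 166, 101 and 92 bases before the start, and Ccn1 held 1 at 113, while 12.1% of the 33469 promoters in the table held at least 1. The Ccn2 promoter is shown because Ccn2 had the smallest p of the rises. It lies at chr1:22624615-22624864 on the minus strand, 5' to 3', with the matches in capitals.
Ccn2: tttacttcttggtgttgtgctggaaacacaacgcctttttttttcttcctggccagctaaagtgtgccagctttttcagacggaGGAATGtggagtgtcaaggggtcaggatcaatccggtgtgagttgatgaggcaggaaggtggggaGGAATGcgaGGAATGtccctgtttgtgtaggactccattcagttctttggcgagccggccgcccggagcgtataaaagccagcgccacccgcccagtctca
A match says only that these letters occur there.

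Irs2, the insulin receptor substrate that links insulin and insulin-like growth factor receptors to their kinases, had log2 values of 8.14 to 8.60 after uninephrectomy, with a median of 8.51. With both kidneys the values were 7.43 to 8.09, with a median of 7.60. The groups of Irs2 did not overlap, and its change was 0.69 ± 0.13 (adjusted p 0.0135), against 0.16 in SBH/y (adjusted p 0.542). Cish, a feedback inhibitor of cytokine receptor signalling that Stat5 induces, ran from 8.38 to 8.87 after uninephrectomy (median 8.53), and from 7.15 to 8.30 with both kidneys (median 7.70). Cish did not overlap either. Its change was 0.83 ± 0.15 (adjusted p 0.00786), that of a second Cish probe set was 0.79 (adjusted p 0.0115), and in SBH/y it was 0.38 (adjusted p 0.122). The interaction had an adjusted p of 0.184 for Irs2 and 0.389 for Cish, so a difference between strains was not shown for either. The Cish promoter, at chr8:116850719-116850968 on the plus strand of GRCr8, is shown because it holds 4 matches to the Stat motif TTCNNNGAA, at 241, 230, 136 and 119 bases before the start, where 7.67% of promoters held any. The matches are in capitals.
Cish: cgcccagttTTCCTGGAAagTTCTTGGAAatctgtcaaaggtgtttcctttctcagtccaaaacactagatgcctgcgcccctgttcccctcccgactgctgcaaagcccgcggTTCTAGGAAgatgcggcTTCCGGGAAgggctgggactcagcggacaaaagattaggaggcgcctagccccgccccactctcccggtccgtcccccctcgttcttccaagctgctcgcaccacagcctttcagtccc
Irs2 had no promoter in the table.

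Other large rises lay outside that list. Cps1, the mitochondrial enzyme that opens the urea cycle, had a median of 5.47 after uninephrectomy (4.90 to 6.12) and of 4.30 with both kidneys (3.99 to 4.93). The ranges overlapped slightly, and much of Cps1 lay below the array medians. Its change of 1.14 ± 0.21 (adjusted p 0.0114) was the largest rise, it was 1.55 in SBH/y, and a second, also dim, Cps1 probe set changed by 0.35 (adjusted p 0.331). Slc25a25, an ATP-magnesium and phosphate carrier of the inner mitochondrial membrane, ran from 8.25 to 9.18 (median 8.72) after uninephrectomy and from 7.34 to 8.97 (median 7.64) with both kidneys. Among the arrays with both kidneys, array 1 alone reached into the uninephrectomy range. Its change was 0.93 ± 0.17 in SBN/y (adjusted p 0.0114) and 0.04 in SBH/y (adjusted p 0.928), with an adjusted p of 0.063 for the difference. With the SBN/y arrays alone the SBN/y change was not called (adjusted p 0.0659).

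The forkhead factor Foxq1 rose by 0.79 ± 0.18 (adjusted p 0.0409), with medians of 8.96 after uninephrectomy and 8.27 with both kidneys and ranges that overlapped. Its call was lost in 9 of the 28 fits without 1 array, with an adjusted p of up to 0.111. Of 22 immediate early genes 1 rose and 0 fell, with a list median of 0.04, where 0.288% of all genes rose. The riser was Jun, a subunit of the AP-1 transcription factor. It ran from 8.73 to 9.51 after uninephrectomy (median 8.99) and from 8.47 to 8.83 with both kidneys (median 8.54), and changed by 0.47 ± 0.09 (adjusted p 0.0125), while its other probe sets changed by 0.31 and 0.38 without a call. Egr1, whose change of -0.30 (adjusted p 0.699) was the lowest of that list, was not called. Ddit4, an inhibitor of mTOR signalling that glucocorticoids induce, rose by 0.34 ± 0.07 (adjusted p 0.0198, and 0.0511 without array 5 with both kidneys). It was the 1 called gene of 17 of the glucocorticoid response, where 0.288% of all genes rose. The changes of all 17 were positive, with a median of 0.12 and a lowest change of 0.01. Of 35 cell cycle genes 0 were called in limma, 2 had an unadjusted p under 0.05 and the median change was -0.02, with Mki67, the proliferation marker, at 0.13 ± 0.09. Of 17 genes of mTOR signalling and ribosome biogenesis 0 were called and 1 had an unadjusted p under 0.05. Of 25 cytosolic ribosomal proteins 0 were called, 0 had an unadjusted p under 0.05, and their changes lay between -0.06 and 0.09.

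**Figure D1:**
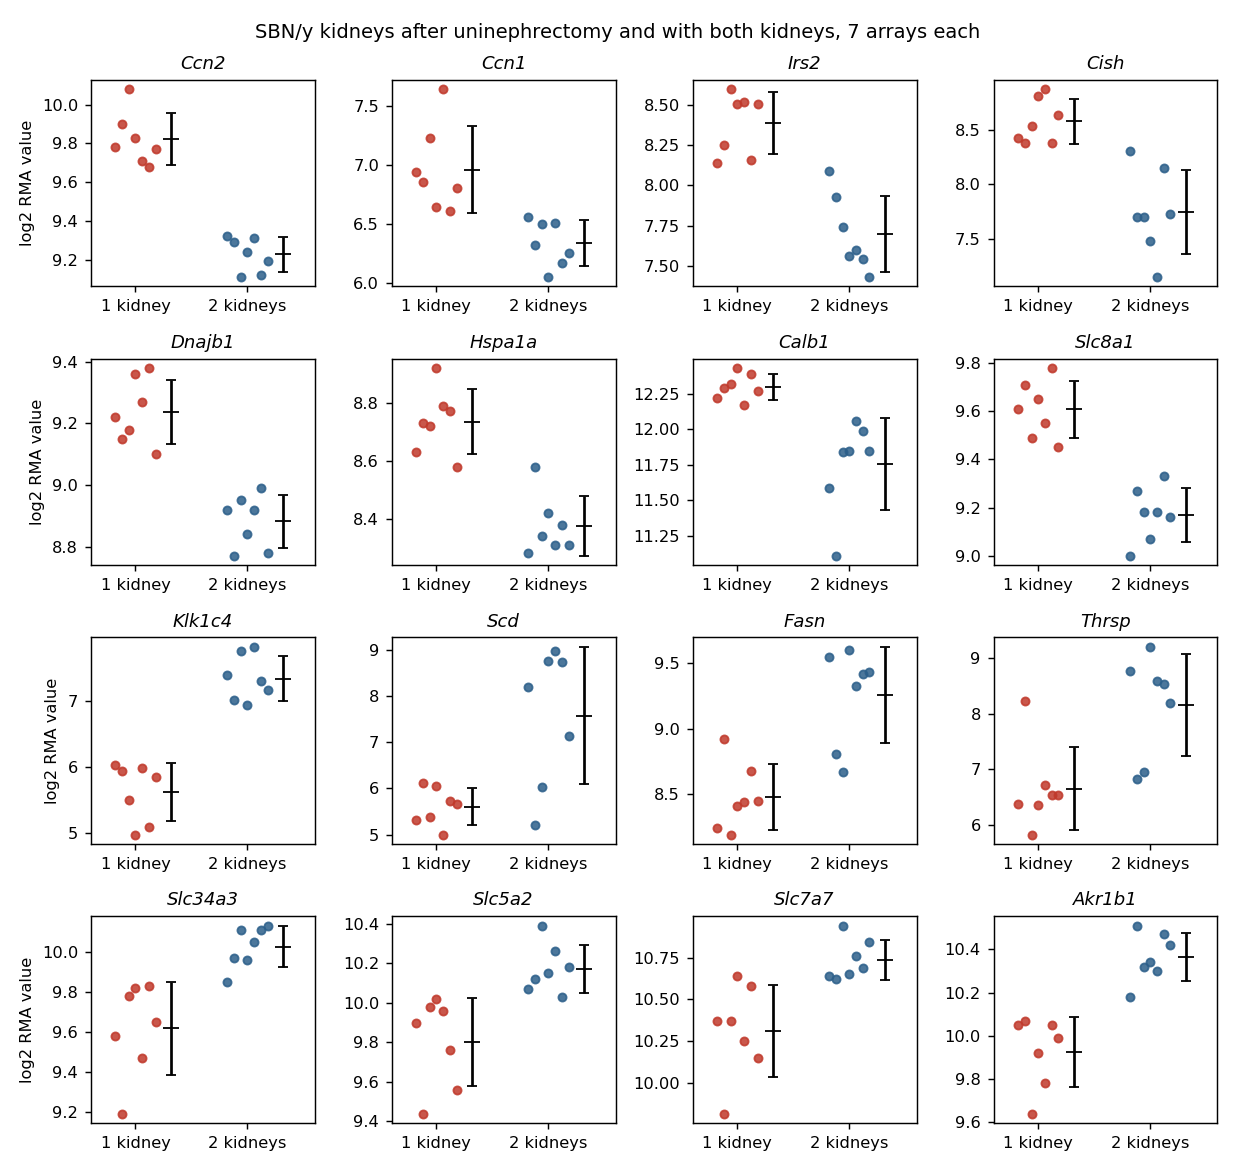
Deposited log2 values of 16 genes in SBN/y kidneys, 7 arrays with 1 kidney (red, left) and 7 arrays with 2 kidneys (blue, right), 1 point per array in the order of the replicate numbers, with the mean and SD in black beside them. Each axis has its own range and does not start at 0. The groups of Ccn2, Dnajb1, Slc8a1 and Klk1c4 lie apart without overlap, while in Scd the arrays 2 and 3 with 2 kidneys lie among those with 1 kidney.

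Of 9 cytosolic heat shock genes measured, 4 rose and 0 fell, 8 changes were positive and the median was 0.26, where 0.288% of all genes rose. Hspa1a, the inducible Hsp70 chaperone, ran from 8.58 to 8.92 after uninephrectomy with a median of 8.73. With both kidneys it ran from 8.28 to 8.58 with a median of 8.34. The groups met at their edges. Hspa1a changed by 0.36 ± 0.07 (adjusted p 0.00786). Dnajb1, the Hsp40 partner of Hsp70, ran from 9.10 to 9.38 with a median of 9.22 after uninephrectomy, and from 8.77 to 8.99 with a median of 8.92 with both kidneys. Its groups did not overlap, and it changed by 0.36 ± 0.06 (adjusted p 0.00507). A second Dnajb1 probe set, whose groups overlapped, changed by 0.25 without a call (adjusted p 0.0521). Hspb1, a small heat shock protein, and Hsph1, an Hsp110 exchange factor, rose by 0.31 ± 0.07 (adjusted p 0.0409) and 0.30 ± 0.07 (adjusted p 0.0345). A second Hsph1 probe set changed by 0.30 without a call (adjusted p 0.0686). The calls of Hspb1 and Hsph1 were lost in 11 and 9 of the 28 fits without 1 array, with adjusted p values of up to 0.0965 and 0.0906, and those of Hspa1a and Dnajb1 in 0. With any of uninephrectomy arrays 2 to 7, or of arrays 2 to 4 with both kidneys, left out, 2 of the 9 were called.

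Of the heat shock genes not called, Dnaja1 changed by 0.26 (adjusted p 0.0578), Hsp90ab1 by 0.18 (adjusted p 0.113) and the co-chaperone Bag3 by 0.17 (adjusted p 0.441). The mitochondrial chaperonins of the list, Hspd1 and Hspe1, had changes of 0.01 and -0.00. In SBH/y 10.4% of all genes were called, 4.85% higher and 5.51% lower, and there 4 of the 9 rose, 0 fell and the median was 0.20. Hspa1a changed by 0.91 there, more than in SBN/y, with an interaction of 0.55 ± 0.09 (adjusted p 0.00177), which was not called with the clock score of each array, described with the clock genes, as a covariate, whereas for Dnajb1 the SBH/y change was 0.39 and the interaction 0.03 (adjusted p 0.944).

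Promoters of heat shock genes carry repeats of GAA and its reverse that bind heat shock factor. Both paired orders, GAANNTTC and TTCNNGAA, were searched in the 250 bases before the start, and 7.23% and 7.48% of the 33469 promoters held them, 13.5% holding either. Of the 4 called genes, 3 held a match and are shown with the matches in capitals. Hsph1, at chr12:10427118-10427367 on the plus strand of GRCr8, held TTCNNGAA at 105 and 36 bases before the start and GAANNTTC at 31, the last pair overlapping. Hspb1, at chr12:26432302-26432551 on the minus strand, held GAANNTTC at 129 and 109 bases. Dnajb1, at chr19:41431142-41431391 on the minus strand, held GAANNTTC at 11 bases.
Hsph1: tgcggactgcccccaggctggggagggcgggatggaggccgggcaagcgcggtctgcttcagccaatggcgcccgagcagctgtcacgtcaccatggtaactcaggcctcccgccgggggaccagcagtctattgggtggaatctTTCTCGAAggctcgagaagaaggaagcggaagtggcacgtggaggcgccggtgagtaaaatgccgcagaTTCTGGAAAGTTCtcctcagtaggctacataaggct
Hspb1: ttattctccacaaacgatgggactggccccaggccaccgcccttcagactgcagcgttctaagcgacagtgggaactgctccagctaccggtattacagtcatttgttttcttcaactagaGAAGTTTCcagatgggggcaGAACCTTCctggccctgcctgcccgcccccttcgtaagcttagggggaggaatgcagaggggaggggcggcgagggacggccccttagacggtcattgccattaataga
Dnajb1: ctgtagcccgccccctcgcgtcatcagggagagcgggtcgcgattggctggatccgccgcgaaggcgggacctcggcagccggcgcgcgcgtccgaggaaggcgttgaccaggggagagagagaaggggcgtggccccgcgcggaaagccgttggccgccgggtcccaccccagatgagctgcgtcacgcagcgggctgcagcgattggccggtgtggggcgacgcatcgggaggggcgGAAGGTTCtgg
Hspa1a held 0 matches in this window. The motifs were chosen with the results known, and a match is a description of the letters.

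Of 28 genes of the unfolded protein and integrated stress responses, 2 rose and 1 fell, where 0.288% of all genes rose and 0.317% fell. In this list 21 changes were positive and the median was 0.09. Manf, a secreted survival factor of the endoplasmic reticulum, ran from 9.74 to 10.14 after uninephrectomy and from 9.51 to 9.70 with both kidneys, with no overlap, and rose by 0.28 ± 0.06 (adjusted p 0.0329). Hspa5, the endoplasmic reticulum Hsp70 also called BiP, rose by 0.24 ± 0.06 (adjusted p 0.0468), with medians of 11.40 after uninephrectomy and 11.08 with both kidneys. Creld2, another chaperone-like gene of the list, had the largest change of 0.28 without a call (adjusted p 0.0605). Phgdh, the first enzyme of serine synthesis, fell by 0.35 ± 0.08 on the log2 scale (adjusted p 0.0475). The calls of Manf, Hspa5 and Phgdh were lost in 9, 16 and 21 of the 28 fits without 1 array, with adjusted p values of up to 0.0871, 0.108 and 0.127. In SBH/y 14 of the 28 rose and 1 fell, with a median of 0.23, where 4.85% of all genes rose and 5.51% fell.

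Among distal tubule markers, the called genes were Calb1 and Slc8a1. Calb1, the calbindin that ferries calcium across the cell, had log2 values of 12.17 to 12.43 after uninephrectomy (median 12.29) and of 11.11 to 12.06 with both kidneys (median 11.85). The groups did not overlap, and array 2 with both kidneys was the lowest. Calb1 rose by 0.54 ± 0.11 (adjusted p 0.0152), and by 0.44 without that array. Slc8a1, the basolateral sodium-calcium exchanger, ran from 9.45 to 9.78 after uninephrectomy (median 9.61) and from 9.0 to 9.33 with both kidneys (median 9.18). Its groups did not overlap, it rose by 0.44 ± 0.07 (adjusted p 0.00433), and a second probe set changed by 0.18 without a call (adjusted p 0.74). In SBH/y the changes were 0.38 for Calb1 (adjusted p 0.0213) and 0.42 for Slc8a1 (adjusted p 0.000191). Of 13 distal convoluted and connecting tubule markers these 2 rose, with 0 falling and a median of -0.01, where 0.288% of all genes rose. Of the 13 changes 6 were positive and 7 negative, the lowest being -0.09 for S100g. The mean level of those 13 was 7.96 to 8.01 after uninephrectomy and 7.78 to 7.95 with both kidneys.

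All 10 thick ascending limb markers had positive changes, with a median of 0.10, against a median of -0.00 over all genes. Where 0.288% of all genes rose, 1 of the 10 was called. This was Cldn16, the claudin that opens the paracellular path for magnesium and calcium, which ran from 7.58 to 7.86 after uninephrectomy and from 7.42 to 7.65 with both kidneys and rose by 0.22 ± 0.05 (adjusted p 0.032). Its call was lost in 9 of the 28 fits without 1 array, with an adjusted p of up to 0.0832. The mean level of the 10 markers was 9.73 to 9.89 after uninephrectomy and 9.60 to 9.74 with both kidneys. Umod and Egf, the uromodulin and epidermal growth factor genes of the distal nephron, changed by 0.05 ± 0.04 (adjusted p 0.779) and 0.15 ± 0.04 (adjusted p 0.115). In limma 0 of 14 collecting duct markers and 0 of 10 intercalated cell markers were called, with 7 and 1 at an unadjusted p under 0.05 and medians of 0.03 and 0.04. Scnn1a, the alpha subunit of the epithelial sodium channel, had the largest collecting duct change of 0.27 (adjusted p 0.21). Of 28 genes of sodium and chloride transport, Slc5a2 alone was called in limma, and it fell, where 0.317% of all genes fell. In that list 12 had an unadjusted p under 0.05, 20 changes were positive and 8 negative, and the median was 0.04.

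Of 34 proximal tubule markers, 4 transporters fell and 0 rose, and with the SBN/y arrays alone 0 were called. Over all 34, 28 changes were negative and the median was -0.07, where 0.317% of all genes fell. Slc34a3, a sodium-phosphate cotransporter, ran from 9.19 to 9.83 after uninephrectomy with a median of 9.65. With both kidneys it ran from 9.85 to 10.13 with a median of 10.05. The groups did not overlap. Slc34a3 changed by -0.41 ± 0.07 (adjusted p 0.00786) and by -0.37 in SBH/y (adjusted p 0.00141). Slc5a2, the glucose transporter SGLT2, ran from 9.44 to 10.02 (median 9.90) after uninephrectomy and from 10.03 to 10.39 (median 10.15) with both kidneys. Its groups did not overlap, and it changed by -0.37 ± 0.07 (adjusted p 0.0153), against -0.11 in SBH/y (adjusted p 0.423, adjusted p of the interaction 0.264).

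Slc7a7 and Slc7a9 are the light chains of a basolateral and an apical amino acid exchanger for cationic amino acids and, at the apical side, cystine. Slc7a7 ran from 9.82 to 10.64 (median 10.37) after uninephrectomy and from 10.62 to 10.94 (median 10.69) with both kidneys, with a slight overlap. It changed by -0.42 ± 0.09 (adjusted p 0.023) in SBN/y and by 0.05 in SBH/y, and the interaction was 0.48 (adjusted p 0.0489). Slc7a9 ran from 9.91 to 10.25 (median 10.14) after uninephrectomy and from 10.26 to 10.64 (median 10.39) with both kidneys, without overlap, and changed by -0.29 ± 0.06 (adjusted p 0.0264), against 0.02 in SBH/y. Slc3a1, the heavy chain that pairs with Slc7a9, changed by -0.02 (adjusted p 0.957). Slc7a7 lost its call without uninephrectomy array 7 (-0.40, adjusted p 0.0613) or array 3 with both kidneys (-0.39, adjusted p 0.0606). Slc7a9 lost it without uninephrectomy array 2 or 7 or array 3 or 7 with both kidneys, with changes of -0.28 to -0.25 and an adjusted p of up to 0.073.

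Proximal tubule genes not called ran on both sides of 0, from -0.32 for Cyp2e1 (adjusted p 0.11) to 0.13 for the organic anion transporter Slc22a6 (adjusted p 0.4). The main phosphate cotransporter Slc34a1 changed by -0.10 (adjusted p 0.542), and the endocytic receptors Lrp2 and Cubn by -0.00 and -0.07. With the 14 SBN/y arrays alone, 0 of the 34 markers were called, and the adjusted p of Slc34a3, Slc5a2, Slc7a7 and Slc7a9 lay between 0.0676 and 0.0947. Without uninephrectomy array 7, or without array 3 with both kidneys, 2 were called.

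**Figure D2:**
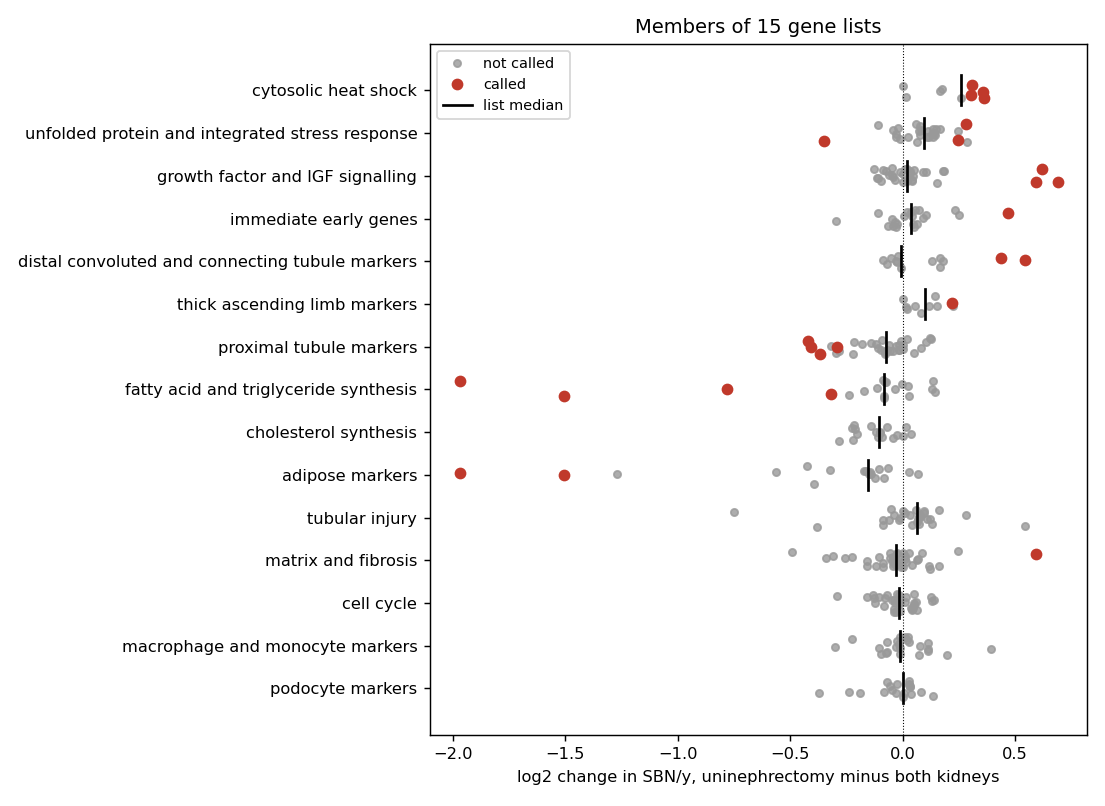
Log2 change in SBN/y, uninephrectomy minus both kidneys, of every measured member of 15 gene lists, 1 point per gene, red where called in limma at an adjusted p under 0.05 and grey otherwise, with the median of a list as a black line. Points are spread vertically for sight only. The heat shock median lies at 0.26, and 4 fatty acid genes and 4 proximal tubule genes fell. Scd and Thrsp stand in both the fatty acid and the adipose list.

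Klk1c4, a glandular kallikrein of the serine protease family, had the smallest p among the falls. It had log2 values of 4.98 to 6.03 after uninephrectomy with a median of 5.85, against 6.93 to 7.81 with a median of 7.29 with both kidneys. The groups did not overlap. Klk1c4 changed by -1.71 ± 0.21 (adjusted p 5.49e-05), by -1.77 to -1.60 with any 1 array left out, and by -2.59 in SBH/y (adjusted p 2.68e-09, adjusted p of the interaction 0.142). Rats have several close kallikrein copies, and which of them its probes bind was not checked, so the gene behind this value is uncertain. Klk1, the tissue kallikrein of the connecting tubule, changed by 0.18 ± 0.06 (adjusted p 0.206).

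Akr1b1, the aldose reductase that makes the osmolyte sorbitol, ran from 9.64 to 10.07 after uninephrectomy (median 9.99) and from 10.18 to 10.51 with both kidneys (median 10.34), without overlap. It changed by -0.44 ± 0.07 (adjusted p 0.00433) and by -0.33 in SBH/y, whereas a second Akr1b1 probe set, with means of 5.36 after uninephrectomy and 5.35 with both kidneys, below the array medians, changed by 0.01 (adjusted p 0.992). Akr1b1 was the only called gene of 13 of the inner medulla and osmolytes, whose median was 0.02, where 0.317% of all genes fell. Stra6, the retinol uptake receptor, changed by -0.44 ± 0.09 (adjusted p 0.0152), with medians of 8.01 after uninephrectomy and 8.36 with both kidneys and no overlap. In 2 more of its probe sets the change was -0.49 and called, in another 2 it was -0.27 and -0.19 and not called, and in SBH/y it was -0.66. Spp2, a secreted phosphoprotein, changed by -0.62 ± 0.11 (adjusted p 0.00786), and Stc2, a stanniocalcin, by -0.59 ± 0.13 (adjusted p 0.032, lost in 9 of the 28 fits without 1 array, up to 0.0853). The dynein gene Dnah7, the galectin Lgals2 and the actin-associated gene Gas2 changed by -0.50 ± 0.10, -0.50 ± 0.10 and -0.49 ± 0.10, with adjusted p values of 0.0189, 0.0214 and 0.0227. They lost their calls in 2, 3 and 4 of the 28 fits, with an adjusted p of up to 0.0534, 0.0579 and 0.0611. Pou3f1 changed by -0.47 ± 0.11 (adjusted p 0.0333, lost in 10 of the 28 fits). It lay at 4.14 or below on all 14 arrays, under the array medians, as Lgals2 largely did.

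Smaller called changes completed the named set. Over all genes, 0.288% rose and 0.317% fell. Gstp1, a glutathione transferase and the only riser of 21 NRF2 targets (median 0.06, 0 falling), rose by 0.33 ± 0.07 without overlap of the groups (adjusted p 0.022, and 0.0502 to 0.0582 without uninephrectomy array 4, 5 or 7). Cbs, which makes cystathionine from homocysteine, changed by -0.19 ± 0.04 without overlap (adjusted p 0.0478, lost in 20 of the 28 fits). Among 28 genes of amino acid metabolism and the urea cycle, Cps1 and Cbs were the called ones, and the median was -0.05. Sox18, a transcription factor of endothelium, changed by -0.29 ± 0.06 (adjusted p 0.0252, lost in 4 of the 28 fits), the only call among 17 endothelial markers, whose median was -0.04. Rsph1, a dim ciliary gene, rose by 0.40 ± 0.09 (adjusted p 0.0313, lost in 9 fits), and Rbm12b, an RNA-binding gene, by 0.40 ± 0.09 without overlap (adjusted p 0.03, lost in 7 fits).

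Genes of fatty acid synthesis included the largest fall. Of 19 genes of fatty acid and triglyceride synthesis, 4 fell and 0 rose, where 0.317% of all genes fell, and 14 changes were negative and the median was -0.08. Scd, the stearoyl-CoA desaturase that makes monounsaturated fatty acids, ran from 5.00 to 6.11 after uninephrectomy with a median of 5.66. With both kidneys its 7 arrays, from 1 to 7, read 8.20, 5.21, 6.03, 8.75, 8.98, 8.73 and 7.13. Arrays 2 and 3 with both kidneys thus lay inside the uninephrectomy range, and the other 5 above it. Scd changed by -1.97 ± 0.41 (adjusted p 0.0232), the largest fall of all, and by -0.25 in SBH/y (adjusted p 0.792, adjusted p of the interaction 0.159). Its call was lost without array 5 of either state, with -1.87 (adjusted p 0.0556) without that of the uninephrectomy group and -1.74 (adjusted p 0.0628) without that with both kidneys.

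Thrsp, the thyroid hormone responsive Spot 14 gene of lipogenesis, ran from 5.82 to 8.24 (median 6.53) after uninephrectomy and from 6.83 to 9.21 (median 8.54) with both kidneys. The ranges overlapped, with uninephrectomy array 2 apart from the other 6 of its group. Thrsp changed by -1.51 ± 0.33 (adjusted p 0.0286), all 3 of its probe sets were called, from -1.64 to -1.28, and its call was lost in 9 of the 28 fits without 1 array (adjusted p up to 0.0702). Fasn, fatty acid synthase, ran from 8.19 to 8.92 (median 8.44) after uninephrectomy and from 8.67 to 9.60 (median 9.42) with both kidneys, with some overlap. It changed by -0.78 ± 0.13 (adjusted p 0.00433), and its call was lost in 0 of those fits. In SBH/y it changed by 0.11, and the interaction of 0.89 ± 0.18 passed the threshold (adjusted p 0.0098). Acaca, acetyl-CoA carboxylase, which makes the malonyl-CoA that Fasn uses, changed by -0.32 ± 0.07 (adjusted p 0.0381, lost in 10 of the 28 fits), and a second probe set by -0.29 (adjusted p 0.0333). In SBH/y the list had 1 fall, 0 rises and a median of 0.00. In SBN/y 1 or 2 of the 19 were called without uninephrectomy array 1, 3, 4, 5 or 7 or without array 1, 4, 5 or 6 with both kidneys. With the SBN/y arrays alone Fasn was called (adjusted p 0.0277), and Scd, Thrsp and Acaca were not (adjusted p 0.109, 0.114 and 0.143). Of 18 cholesterol synthesis genes 0 were called in limma, 7 had an unadjusted p under 0.05, 15 changes were negative and the median was -0.11, with Idi1 lowest at -0.28. Of 31 genes of fatty acid oxidation 0 were called, 3 had an unadjusted p under 0.05 and the median was -0.06. Of 42 genes of oxidative phosphorylation 0 were called and 2 had an unadjusted p under 0.05, with a median of -0.01.

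Fat markers are given beside these genes. Of 18 adipose markers Scd and Thrsp fell, both also members of the fatty acid list, where 0.317% of all genes fell. The other 16 were not called. The changes of 16 of the 18 were negative, with a median of -0.16, against -0.00 over all genes. Ucp1, the uncoupling protein of brown fat, averaged 6.96 ± 1.09 after uninephrectomy and 8.23 ± 0.81 with both kidneys (adjusted p 0.162). Changes of the other defining fat genes were -0.14 for adiponectin, Adipoq, -0.42 for Fabp4, -0.40 for Plin1, -0.33 for Cidec, -0.56 for Cfd and 0.07 for leptin, Lep, with adjusted p values from 0.282 to 0.905. The fat score of an array, the mean centred log2 value of Adipoq, Fabp4, Plin1, Cidec, Lep and Ucp1, was -0.59 to 0.04 on 6 uninephrectomy arrays and 0.87 on array 2. With both kidneys it was -0.22 on array 3 and 0.21 to 0.88 on the other 6. With this score as a covariate Scd changed by -1.39 (adjusted p 0.14), Thrsp by -0.70 (adjusted p 0.0558), Acaca by -0.18 (adjusted p 0.246) and Fasn by -0.51 (adjusted p 0.00964). With the same covariate 2 of the 9 heat shock genes were called, Irs2 changed by 0.60 (adjusted p 0.0539) and Ccn1 by 0.56 (adjusted p 0.0716). Ccn2 changed by 0.61 and Klk1c4 by -1.66, both with an adjusted p of 0.00029, and 7 of the 34 proximal tubule markers were called. The fat score itself differed between the 2 states on most arrays, so a fit with it cannot tell fat in the samples from the operation. Whether perirenal fat gave part of the falls was not tested.

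**Figure D3:**
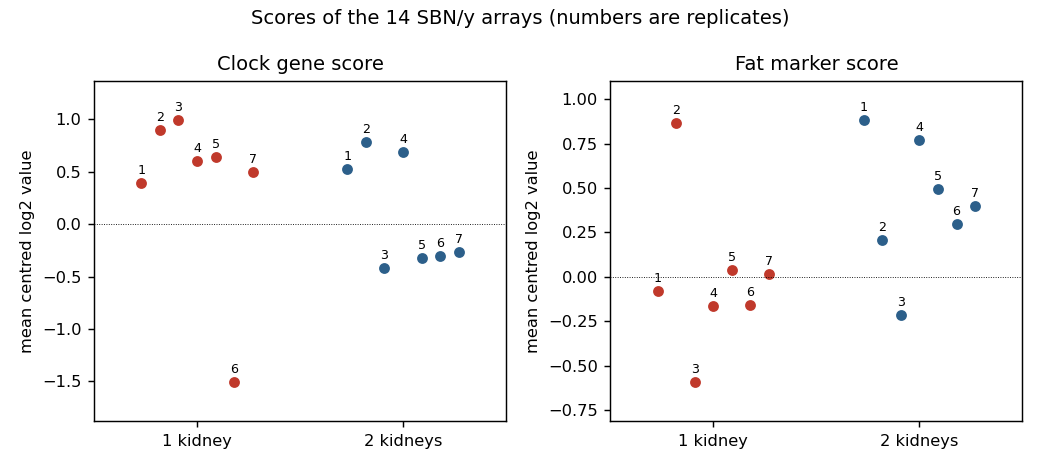
Clock gene score (left) and fat marker score (right) of the 14 SBN/y arrays, as mean centred log2 values, with 7 arrays with 1 kidney in red left of 7 arrays with 2 kidneys in blue and the replicate number above each point. Array 6 with 1 kidney has the lowest clock score, -1.50, and array 2 with 1 kidney a fat score of 0.87, above the other 6 of its group.

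Genes of kidney damage were not called in SBN/y. Of 28 tubular injury genes 0 were called in limma and 5 had an unadjusted p under 0.05, with a median change of 0.06. Havcr1, the kidney injury molecule of damaged proximal tubule, ran from 4.38 to 5.71 after uninephrectomy and from 4.27 to 4.86 with both kidneys, all below the array medians. It changed by 0.54 ± 0.24 (adjusted p 0.474), against 2.79 in SBH/y, with an interaction of 2.25 (adjusted p 0.000741). Ccl2, a monocyte chemokine, had the lowest change of the list, -0.75 ± 0.21 (adjusted p 0.109). Osteopontin, Spp1, changed by 0.10 (adjusted p 0.887) and clusterin, Clu, by -0.04 (adjusted p 0.952), and their interactions of 0.77 (adjusted p 0.00318) and 0.54 (adjusted p 0.00315) passed the threshold. A second, dim Clu probe set gave an interaction of 0.24 without a call (adjusted p 0.447). Lcn2, Agt and Klotho, Kl, changed by 0.08, 0.03 and -0.01 and were not called.

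Ccn2 was the only called gene of 40 matrix and fibrosis genes, where 0.288% of all genes rose. Of the 40, 11 had an unadjusted p under 0.05, and the median change was -0.03. The collagen genes Col1a1 and Col3a1 both changed by -0.04 and the cytokine Tgfb1 by -0.05, and the matrix protease Mmp9 by -0.49 (adjusted p 0.0793). Of 19 podocyte markers 0 were called and 3 had an unadjusted p under 0.05, with a median of -0.00. Nephrin, Nphs1, changed by -0.07 (adjusted p 0.932) in SBN/y and by -0.62 in SBH/y, and the interaction was -0.55 (adjusted p 0.0364, lost in 16 of the 28 fits without 1 array). A second Nphs1 probe set gave an interaction of -0.40 without a call (adjusted p 0.123). Of 24 macrophage markers 0 were called and 4 had an unadjusted p under 0.05, with changes from -0.30 for Itgax to 0.39 for Mrc1. Interferon response genes gave 0 calls of 30 and 1 at an unadjusted p under 0.05, chemokines and cytokines 0 of 31 and 7, antigen presentation 0 of 26 and 3, and T and NK cell markers 0 of 17 and 0. Of 8 B and plasma cell markers 0 were called, with the joining chain Jchain at 0.47 ± 0.13 (adjusted p 0.115). In SBH/y 12 of the injury genes, 8 of the macrophage markers and 16 of the 35 cell cycle genes rose, where 4.85% of all genes did, and 9 podocyte markers fell, where 5.51% did.

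Vasoactive genes and the remaining lists gave few calls or none. Of 19 genes of the renin-angiotensin and vasoactive systems 0 were called in limma and 5 had an unadjusted p under 0.05, with the prostaglandin synthase Ptgs2 lowest at -0.52 ± 0.15 (adjusted p 0.121). Of 24 cytochrome P450 and conjugation genes 0 were called and 8 had an unadjusted p under 0.05, led by Cyp1a1, which metabolises aromatic compounds, at 0.62 ± 0.26 (adjusted p 0.465). Of 15 hypoxia response genes 0 were called and 1 had an unadjusted p under 0.05. That gene, Hmox1, the inducible heme oxygenase, changed by 0.33 ± 0.09 (adjusted p 0.107).

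Clock genes, which swing over the day in kidney, differed between arrays of the same group. Of 4 genes listed as activators (Bmal1, Npas2, Clock and Nfil3) and 14 listed as repressors or outputs (Rora included), 0 and 0 were called in limma. At an unadjusted p under 0.05 there were 1 and 3. These are names of lists, and not every member acts as its list is named. The largest change was that of Nr1d1, a clock repressor, at -0.86 (adjusted p 0.324), and Bmal1, the core activator, changed by 0.12. Bmal1 read 6.79 to 7.28 on 6 uninephrectomy arrays and 4.95 on array 6, against 6.29 to 7.03 with both kidneys. Dbp, an output that peaks in the opposite phase, read 9.03 on uninephrectomy array 6 and 6.24 to 6.87 on the other 6, against 6.56 to 8.18 with both kidneys. A clock score was made for each array, the mean of the centred activator list minus that of the repressor and output list. It was -1.50 on uninephrectomy array 6 and 0.40 to 0.99 on the other 6. With both kidneys it was 0.53 to 0.78 on arrays 1, 2 and 4 and -0.42 to -0.27 on arrays 3, 5, 6 and 7. Without uninephrectomy array 6 there were 120 calls, and with the clock score as a covariate 154, with 43 of the 45 named calls kept. No label used here states the hour of killing.

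The same operation gave 1033 higher and 1525 lower probe sets in SBH/y, 3.33% and 4.91% of all, together 2558 or 8.24%, against 144 in SBN/y. The 2 comparisons share no arrays but share the spread estimate of each probe set. Of the 144, 61 were called the same way in SBH/y, which is 42.4% of the SBN/y calls and 2.38% of the SBH/y calls, and 4 were called the opposite way. Of the 69 probe sets that rose in SBN/y, 61 had a positive change in SBH/y, and of the 75 that fell 64 had a negative one. How often the signs matched over all probe sets was not counted. The interaction was called for 439 probe sets, 1.41% of all, and for 17 of the 144, and without SBH/y uninephrectomy array 2 for 870. With the clock score as a covariate the interaction was called for 0 probe sets, with 1517 at an unadjusted p under 0.05, and the SBH/y comparison for 69. In SBH/y 6 of 7 uninephrectomy arrays had clock scores of -2.26 to -1.50 and 1 of 1.12, against 0.80 to 1.24 with both kidneys, so in that strain the clock score moved with the operation on 6 of 7 arrays.

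Some genes called in SBN/y also differed between the strains by a called interaction, Slc7a7 among them. The 6 with the smallest interaction p were Fasn, Hspa1a, Ccl28, Slc16a7, Cyp4v3 and Asb9, a selection from the 17 such probe sets. Ccl28, an epithelial chemokine, ran from 5.44 to 5.79 after uninephrectomy and from 5.07 to 5.48 with both kidneys in SBN/y, where it changed by 0.32 ± 0.07 (adjusted p 0.0286). Most of these Ccl28 values lay below the array medians. In SBH/y it changed by -0.34 (adjusted p 0.00153), and the interaction was -0.66 (adjusted p 0.000741). Slc16a7, a monocarboxylate transporter, ran from 10.32 to 10.51 after uninephrectomy and from 9.96 to 10.22 with both kidneys, without overlap. It changed by 0.27 ± 0.06 in SBN/y (adjusted p 0.0286) and by -0.27 in SBH/y (adjusted p 0.00238), with an interaction of -0.54 (adjusted p 0.000853). Cyp4v3, a fatty acid hydroxylase, changed by 0.22 ± 0.05 in SBN/y and by -0.20 in SBH/y (adjusted p 0.0475 and 0.017). A second, dim Cyp4v3 probe set changed by 0.04 in SBN/y and -0.08 in SBH/y without a call (adjusted p 0.96 and 0.634). Asb9, an adaptor of ubiquitin ligases, was lower in both strains, with changes of -0.29 ± 0.07 in SBN/y (adjusted p 0.0472) and -0.80 in SBH/y (adjusted p 4.37e-09), with an interaction of -0.52 (adjusted p 0.00485). The SBN/y calls of Ccl28, Slc16a7, Cyp4v3 and Asb9 were lost in 8, 5, 22 and 20 of the 28 fits without 1 array, with an adjusted p of up to 0.0796, 0.0796, 0.116 and 0.114. None of the interactions named here was called with the clock score as a covariate.

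**Figure D4:**
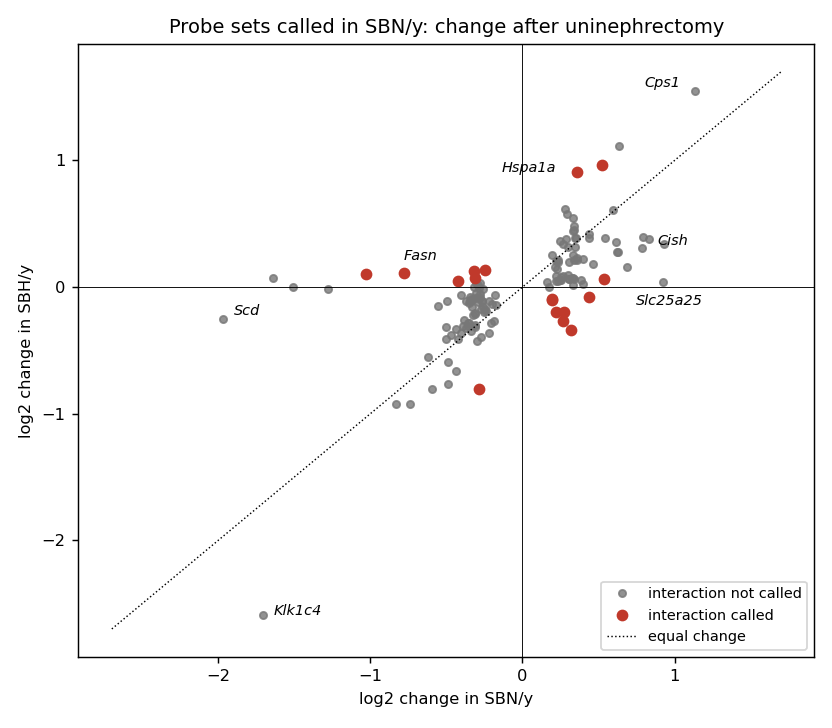
Log2 change after uninephrectomy in SBN/y (horizontal) and in SBH/y (vertical) of the 144 probe sets called in SBN/y, red for the 17 whose interaction was called and grey for the rest, with a dotted line of equal change. Klk1c4 lies at -1.71 and -2.59, Cps1 at 1.14 and 1.55, and Fasn and Scd lie near 0 in SBH/y. The points were chosen by their SBN/y change, so the horizontal gap around 0 is set by that choice.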

How the data were processed

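Total RNA of female rat kidney was labelled with biotin and measured on 1-colour Affymetrix rat arrays, 1 per sample, per the labels' protocols. The authors deposited 1 table of log2 values for 31099 probe sets, made with GCOS and RMA per the submitters' processing notes (versions not given in the sources used here). Background correction by RMA is followed by quantile normalization and a summary of the probes on the log2 scale, so a change in total RNA per kidney cannot be seen. No source used here says whether all arrays were normalized together.

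After 57 control probe sets were left out, limma 3.58.1 in R 4.3.3 (lmFit, eBayes) fitted 1 mean per group to 28 arrays, with p-values adjusted by Benjamini-Hochberg over 31042 probe sets and a threshold of 0.05. The values after ± are standard errors beside changes and SDs beside means. Precision is limited by the 7 arrays per group. The fit was tested on simulated data.

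Of the probe sets, 20826 had 1 symbol in the platform annotation (20758 updated by gene identifier and 2 by accession in RefSeq's table, 66 as given), 436 several and 9780 none, and the last 2 kinds were tested but not named. A gene was represented by its brightest probe set on average. Named were the 12 largest rises and 12 largest falls among called genes, called members of 46 gene lists (up to 6 per list), a kidney panel, both clock lists, and the 6 called genes with the smallest interaction p. An uncalled list member was named as an example by size of change, and a few others for their known role, chosen after their values were seen. The comparison and the lists were chosen with earlier results of these data known. Promoters came from RefSeq on GRCr8.

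Alternatives were the SBN/y arrays alone, quantile normalization, median centring, no probe sets of the dimmest 40%, trended or robust eBayes, array weights, a replicate block, clock and fat scores as covariates, each array left out, and other probe sets of a gene.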

Additional observations from a re-analysis of the deposited data

Results flagged for a closer look

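In 19 of 154 groups of 7 SBN/y arrays examined, or 12.3%, the highest or lowest array lay far from the other 6, where chance gives about 1 in 20. Uninephrectomy array 6 stood apart in its group for the clock score (-1.504) and for 7 clock genes, with log2 values of 4.95 for Bmal1, 5.58 for Npas2, 5.54 for Nfil3, 7.71 for Per3, 9.03 for Dbp, 8.03 for Tef and 7.59 for Bhlhe41, and for Agt (4.12). Other uninephrectomy arrays that stood apart were array 2 for Thrsp (8.24), array 7 for Lcn2 (4.08) and array 5 for Kl (8.31). With both kidneys, array 2 stood apart for Gstp1 (10.94), Col1a1 (7.20), Nphs1 (6.92), Per1 (7.09) and Usp2 (6.66), and array 1 for Slc25a25 (8.97) and Kl (6.84).

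For 21 named genes the uninephrectomy change differed between the strains by a called interaction in limma, given as the SBH/y change minus the SBN/y change in log2 units. For genes called in SBN/y it was 0.893 for Fasn, 0.551 for Hspa1a, 0.475 for Slc7a7, -0.661 for Ccl28, -0.535 for Slc16a7, -0.416 for Cyp4v3 and -0.516 for Asb9. For kidney panel genes it was 2.245 for Havcr1, 0.768 for Spp1, 0.543 for Clu, 0.493 for Col1a1 and -0.551 for Nphs1. The interaction calls of Col1a1 and Nphs1 were lost in 18 and 16 of 28 fits without 1 array, with an adjusted p of up to 0.0723 and 0.0657. In a second probe set the interaction was 0.095 for Col1a1 (adjusted p 0.869) and -0.397 for Nphs1 (adjusted p 0.123). In a second, dim probe set it was 0.238 for Clu (adjusted p 0.447) and -0.119 for Cyp4v3 (adjusted p 0.781). For clock genes it was -2.273 for Bmal1, -2.666 for Npas2, -1.302 for Nfil3, 1.848 for Per3, 1.742 for Nr1d1, 1.855 for Nr1d2, 2.582 for Dbp, 1.137 for Tef and 1.300 for Bhlhe41. With the clock score as a covariate the interaction was called for 0 probe sets.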

How the results depend on the processing

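The 144 calls in SBN/y became 60 with the SBN/y arrays alone (58.3% higher, against 47.9% of the 144), 225 with array weights, and 131 to 211 with the other normalizations, the dim filter, trended or robust eBayes and the covariates. With the fat score as a covariate they were 171, of which 33.9% were higher and 92 were among the 144. The interaction gave 899 calls with array weights and 0 with the clock score as a covariate, against 439, and the SBH/y comparison 69 with the clock score, against 2558. With 1 array left out the counts ran from 62 to 167 in SBN/y, from 1925 to 3145 in SBH/y and from 306 to 870 for the interaction, the last without SBH/y uninephrectomy array 2. In SBN/y the count was lower by more than 1.5 times without uninephrectomy array 2, 3, 4, 5 or 7 (87, 95, 91, 79 and 62) or without array 3 or 5 with both kidneys (69 and 72). A replicate block gave 280 calls in SBN/y, which held all 144, 3500 in SBH/y and 812 for the interaction. The main fit did not take the numbers as pairs. The r of same-numbered SBN/y arrays was over 0.1 in 5 of 7 cases, from -0.068 to 0.26, and 3 of 7 arrays correlated best with their own number. Whether same-numbered arrays share an effect was not tested. The interquartile range over all 4 groups was 3.245 to 3.36 for the arrays numbered 6, 3.347 to 3.383 for those numbered 7 and 3.358 to 3.601 for the others. Among the SBN/y arrays with both kidneys, arrays 7 (3.35) and 4 (3.358) lay below array 6 (3.36). Whether a number marks a batch was not tested. Of the 45 named calls, 19 were kept with the SBN/y arrays alone, 29 with the fat score, 43 with the clock score and 42 to 45 under the other settings, and 0 changed sign. Only between probe sets did a sign change, in Akr1b1, where a second, dim probe set gave 0.009. The causes were not tested. The number of arrays limits all values, and signal over background was not measured.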

Other observations

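The genes of this paragraph were chosen from the called ones after their values were seen, so they say nothing about a group. For Slc5a12, Agtr1a and Dpp4 the value belongs to a probe set that was not the brightest. The brightest probe sets of these genes are not given here, so their values do not stand for the whole gene. Slc5a12, a lactate transporter, changed by -0.83 ± 0.19 in a probe set that was not its brightest (adjusted p 0.0333 in limma). Its log2 values there were 5.24 to 6.44 after uninephrectomy and 6.11 to 7.31 with both kidneys. Hsd11b1, which regenerates active glucocorticoid, ran from 11.06 to 11.29 after uninephrectomy and from 11.34 to 11.78 with both kidneys, without overlap, and changed by -0.34 ± 0.06 (adjusted p 0.00719). Ddc, the dopamine-forming decarboxylase, changed by -0.43 ± 0.09 (adjusted p 0.0256), the monoamine oxidase Maob by -0.39 ± 0.09 and the angiotensin receptor Agtr1a, in 1 of its probe sets, by -0.30 ± 0.07 (adjusted p 0.0286 each). Villin, Vil1, an actin bundler of microvilli, changed by -0.28 ± 0.06 (adjusted p 0.0301), and the dipeptidyl peptidase Dpp4 by -0.22 ± 0.05 in a probe set that was not its brightest (adjusted p 0.0345). Of Hnf4a, a transcription factor of proximal tubule, probe sets other than the brightest changed by -0.27 and -0.25 (adjusted p 0.0435 and 0.0214), while the brightest, counted in the marker list, changed by -0.00 (adjusted p 1), so the probe sets of this gene disagreed.

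Other genes called in the same comparison were also chosen after their values were seen and carry no test as a group. Chordc1, an Hsp90 co-chaperone, ran from 8.44 to 8.79 after uninephrectomy and from 7.90 to 8.46 with both kidneys and changed by 0.33 ± 0.08 (adjusted p 0.0435). Ahsa1, which activates the Hsp90 ATPase, ran from 9.12 to 9.28 after uninephrectomy and from 8.71 to 9.10 with both kidneys, without overlap, and changed by 0.21 ± 0.05 (adjusted p 0.0485). A second probe set of Dnaja1 changed by 0.23 ± 0.06 (adjusted p 0.0459), while its brightest probe set and the co-chaperone Bag3 were not called (adjusted p 0.0578 and 0.441).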
